A study of Mus musculus with 8 samples.

Results

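A set of 37 genes for the lysosome was examined in mouse bone marrow-derived dendritic cells (BMDCs), among 23356 genes measured by RNA-seq. The genes were chosen by name. They comprise 4 lysosomal membrane proteins, 7 cathepsins, 6 glycosidases, 6 genes for lipid and protein breakdown, 10 for the lysosomal proton pump, 3 transcription factors of the MiT/TFE family and the autophagy receptor gene *Sqstm1*. BMDCs were grown for several days with GM-CSF and IL-4 from bone marrow of WT mice or of GEF-H1-/- mice, both on a C57BL/6 background per the labels (C57BL/6N in the study's methods), and were left untreated (control) or treated with ansamitocin-P3. Ansamitocin-P3, a compound of the maytansine kind, attaches to tubulin and takes microtubules apart, and was given at 100 nM for 5 h. GEF-H1, encoded by *Arhgef2*, is a guanine nucleotide exchange factor for RhoA that is held inactive on microtubules and released when they come apart. Per the study's methods the mice were adult and sex-matched. The 4 groups had 2 libraries each. The sources used here do not say whether the libraries of a group came from separate animals or cultures, and the GEF-H1-/- mice lack the gene in all cells, not in dendritic cells (DCs) alone.

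The deposited table holds 1 value per gene and group, in FPKM (fragments scaled to transcript length and library size), into which Cuffdiff combined both libraries. It adds the bounds of a 95% interval for each value, which stands here as its error and is given in brackets. Every member lay within its own interval, but some other genes did not, among them *S100a8*. There is no value per library and therefore no SD, n or p-value, and the number of reads behind each value is unknown. Changes are log2 ratios of FPKM + 1, a scale that shrinks the changes of weakly expressed genes. All 37 members were found and each reached 1 FPKM in some group, the filter that 11397 genes of the table passed. A difference was counted when it exceeded 1.5-fold on this scale, a log2 ratio beyond 0.585. *Arhgef2* (chromosome 3, 88616207 to 88648052, GRCm38) stood at 42.3 FPKM in control and 45.9 in treated WT BMDCs, against 4.59 and 4.16 in the GEF-H1-/- groups, which runs the same way as the labels.

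The cells carried DC transcripts in all groups. *Itgax*, which encodes CD11c, lay between 102 and 175 FPKM, and *H2-Ab1*, a chain of MHC class II, between 506 and 633. Other DC markers were lower, with *Zbtb46* between 9.09 and 22.1 FPKM, *Flt3* between 1.07 and 2.63 and *Cd209a* between 0.808 and 3.30. Macrophage transcripts were present in all groups as well, with *Csf1r* between 58.7 and 91.3 FPKM and *Lyz2* between 511 and 984. Transcripts of neutrophils were also abundant, with 8 marker genes summing to between 21868 and 38309 FPKM, the largest share *S100a8*, which stood above its own interval in every group (19401 FPKM in control WT BMDCs, with bounds of 9356 and 16474), and lymphocyte markers were low, with a sum of 8.12 to 14.9 FPKM. In bulk RNA, fewer cells of a type and less RNA per cell cannot be told apart.

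Lysosomes break down proteins, lipids and sugar chains with hydrolases that work at acid pH. The acid is made by the V-ATPase, whose cytosolic V1 sector splits ATP and whose membrane V0 sector carries the protons. In BMDCs the activity of lysosomal proteases and the acidity of endosomes shape how antigen is processed for MHC class II. Many lysosomal genes share a promoter element that contains an E-box, CACGTG, and is bound by TFEB, TFE3 and MITF, factors that are kept in the cytosol while nutrients are plentiful and enter the nucleus upon starvation or lysosomal stress. These data are transcript levels, and neither enzyme activity, pH nor the location of the factors was measured.

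The 7 letters TCACGTG, the core of that element, were sought on both strands in RefSeq promoters of GRCm38.p6, from 250 bases before to 50 bases after each start site. Every match also contains the shorter E-box. A promoter was given for 31 of the 37 members, and 10 of these (32.3%) held at least 1 match, compared with 4.29% of all 27025 genes with a promoter and 7.17% of the 8519 genes that passed the filter and had a promoter. Among 90 further genes of lysosomes and autophagy with a promoter, from the lists described below, 18 (20.0%) held a match. The 10 members with a match were *Lamp1*, *Mcoln1*, *Ctsa*, *Ctsd*, *Gla*, *Glb1*, *Gaa*, *Atp6v0b*, *Atp6v0d1* and *Atp6v1a*. The stretches below are from the 5 members with 2 or more separate matches within 100 bases, overlapping ones counted once. They show how closely the matches follow each other. Each is written on the gene's strand, and capitals mark the matches, with overlapping matches on opposite strands merged into 1 run. They lie at chrX:134601178-134601248 (minus strand) for *Gla*, chr8:13159084-13159166 (plus strand) for *Lamp1*, chr8:3500432-3500495 (plus strand) for *Mcoln1*, chr2:164833745-164833799 (plus strand) for *Ctsa* and chr4:117887327-117887381 (minus strand) for *Atp6v0b*.
Gla: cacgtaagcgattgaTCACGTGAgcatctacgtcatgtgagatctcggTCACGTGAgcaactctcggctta
Lamp1: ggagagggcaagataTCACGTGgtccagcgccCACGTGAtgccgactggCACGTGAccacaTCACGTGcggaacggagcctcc
Mcoln1: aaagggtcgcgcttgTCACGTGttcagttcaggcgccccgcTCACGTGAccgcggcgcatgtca
Ctsa: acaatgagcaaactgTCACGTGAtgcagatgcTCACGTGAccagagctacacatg
Atp6v0b: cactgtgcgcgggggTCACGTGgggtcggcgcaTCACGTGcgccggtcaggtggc

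With overlapping matches counted once, *Lamp1* had 4 in this stretch and the others 2 each. A match is a string of letters and not a measured binding site. The motif of AP-1 factors, TGANTCA, was present in 4 of the 31 members (*Glb1*, *Neu1*, *Psap* and *Tfe3*), or 12.9%, compared with 8.97% of all genes with a promoter and 6.32% of those that passed the filter. No promoter of *Sqstm1*, *Lipa* or *Atp6v0c* in this table held TCACGTG or TGANTCA, which says only that these letters are not in those windows.

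The members were abundant transcripts. Their median level in control WT BMDCs was 93.2 FPKM, where the median of all filtered genes was 12.3 FPKM, and together they made up 1.24% to 1.42% of all FPKM in the 4 groups. *Psap*, which encodes the precursor of the saposins that help enzymes reach sphingolipids, was the highest at 2463 FPKM (1840 to 3085) in control WT BMDCs, rank 18 of the table. The cathepsins *Ctsd* and *Ctsz* stood at 623 FPKM (504 to 741) and 671 FPKM (516 to 824), and the intervals of these neighbours overlapped. *Gla*, for alpha-galactosidase A, was the lowest member in control WT BMDCs at 6.77 FPKM (5.26 to 8.27), followed by *Mitf* at 7.59 FPKM (5.85 to 9.36), again with overlapping intervals.

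After ansamitocin-P3, 5 of the 37 members in WT BMDCs were more than 1.5-fold higher, namely *Sqstm1*, *Gla*, *Atp6v0c*, *Tfe3* and *Ctsl*, and 1 was more than 1.5-fold lower, *Lipa*. Of all filtered genes, 9.66% were past this limit upward and 8.04% downward, so the members' shares of 13.5% and 2.7% were near the background. Past 2-fold were *Sqstm1* and *Gla*, 2 of 37 against 4.94% of all genes. Intervals before and after treatment lay apart for 6 members, the 5 named without *Atp6v0c* and in addition *Mitf*, 16.2% against 16.8% of all genes. Most members stayed within 1.5-fold. By any amount, 28 of 37 (75.7%) had a higher value in treated WT BMDCs, where 50.1% of all genes did, and the members' median log2 ratio was 0.19, although it turned to -0.09, with 16 of 37 higher, when the groups were rescaled to the same FPKM total. The sum over all genes was 609360 FPKM in control and 739523 in treated WT BMDCs, and that rescaling moves the median of all genes from 0.00 to -0.24. Relative to the median of all genes, the members' median was 0.19 above it as deposited and 0.15 above it after rescaling. Rescaling also changed the split of members past 1.5-fold from 5 higher and 1 lower to 2 higher (*Sqstm1* and *Gla*) and 2 lower (*Lipa* and *Tfeb*). Of all genes, 17.7% were past the limit in either direction as deposited and 23.6% after rescaling.

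**Figure D1:**
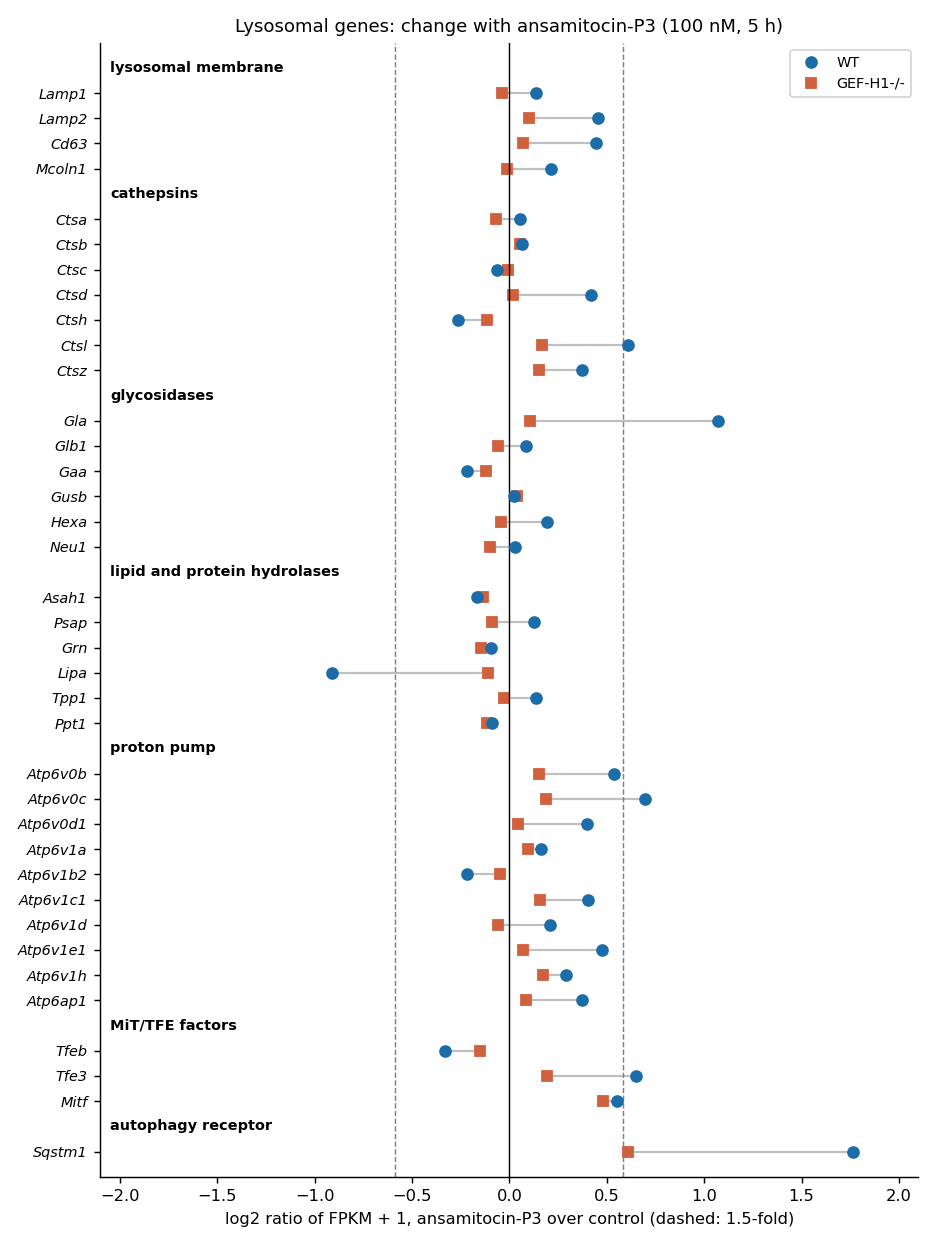
Change of each of the 37 members with ansamitocin-P3, as the log2 ratio of FPKM + 1 of treated over control BMDCs on the horizontal axis, for WT (circles) and GEF-H1-/- BMDCs (squares), grouped by role, with dashed lines at 1.5-fold. In WT, *Sqstm1*, *Gla*, *Atp6v0c*, *Tfe3* and *Ctsl* lie right of the upper line and *Lipa* left of the lower one, of which *Atp6v0c*, *Tfe3* and *Ctsl* fall inside the lines when groups are rescaled to the same total, while in GEF-H1-/- BMDCs *Sqstm1* lies past a line, and inside it after that rescaling.

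*Sqstm1* (chromosome 11, 50199366 to 50210827, GENCODE M21) showed the largest difference among the members in WT BMDCs. It encodes p62, a receptor that carries ubiquitin-tagged cargo into autophagosomes and also serves as a signalling scaffold. *Sqstm1* stood at 140 FPKM (114 to 166) in control WT BMDCs, 478 (386 to 570) in treated WT BMDCs, 140 (115 to 166) in control GEF-H1-/- BMDCs and 214 (175 to 254) in treated GEF-H1-/- BMDCs. Both control groups had the same level, treated WT BMDCs were highest, and treated GEF-H1-/- BMDCs lay between with an interval that touched neither. The log2 ratio was 1.77 in WT (3.42-fold) and 0.61 in GEF-H1-/- BMDCs (1.53-fold). *Sqstm1* shares exon bases with *Mrnip* on the opposite strand. The libraries were strand-specific, but whether strand was used in the counting is not given in the sources used here.

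*Gla*, whose product removes galactose from glycolipids, was the second largest. Its level was 6.77 FPKM (5.26 to 8.27) in untreated and 15.3 (12.2 to 18.4) in treated WT BMDCs, against 7.90 (6.14 to 9.63) and 8.58 (6.72 to 10.4) in control and treated GEF-H1-/- BMDCs. Treated WT BMDCs stood above the other groups, whose intervals overlapped each other. The log2 ratio was 1.07 in WT and 0.11 in GEF-H1-/- BMDCs. Of the 10 members with TCACGTG in the promoter *Gla* was the only one past 1.5-fold in WT BMDCs.

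*Lipa* encodes lysosomal acid lipase, which releases fatty acids and cholesterol from the lipids of endocytosed lipoproteins. It moved the opposite way, with 109 FPKM (82.6 to 136) in untreated and 57.6 (46.9 to 68.3) in treated WT BMDCs. Without GEF-H1 it was at 130 FPKM (104 to 156) in control and 120 (96.6 to 144) in treated cells. Treated WT BMDCs were thus lower than each other group, with intervals apart, and the log2 ratios were -0.91 in WT and -0.11 in GEF-H1-/- BMDCs.

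*Ctsl*, for the cysteine protease cathepsin L, was low in a single group. It stood at 47.3 FPKM (36.7 to 56.8) in control WT BMDCs, and at 72.6 (57.5 to 86.8) in treated WT, 73.4 (57.6 to 88.7) in control GEF-H1-/- and 82.7 (65.0 to 100.2) in treated GEF-H1-/- BMDCs. The interval of control WT BMDCs lay below that of the other groups, which overlapped each other. The log2 ratio with ansamitocin-P3 was 0.61 in WT and 0.17 in GEF-H1-/- BMDCs. *Ctsl* shares exon bases with a processed pseudogene and an antisense gene in the annotation.

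**Figure D2:**
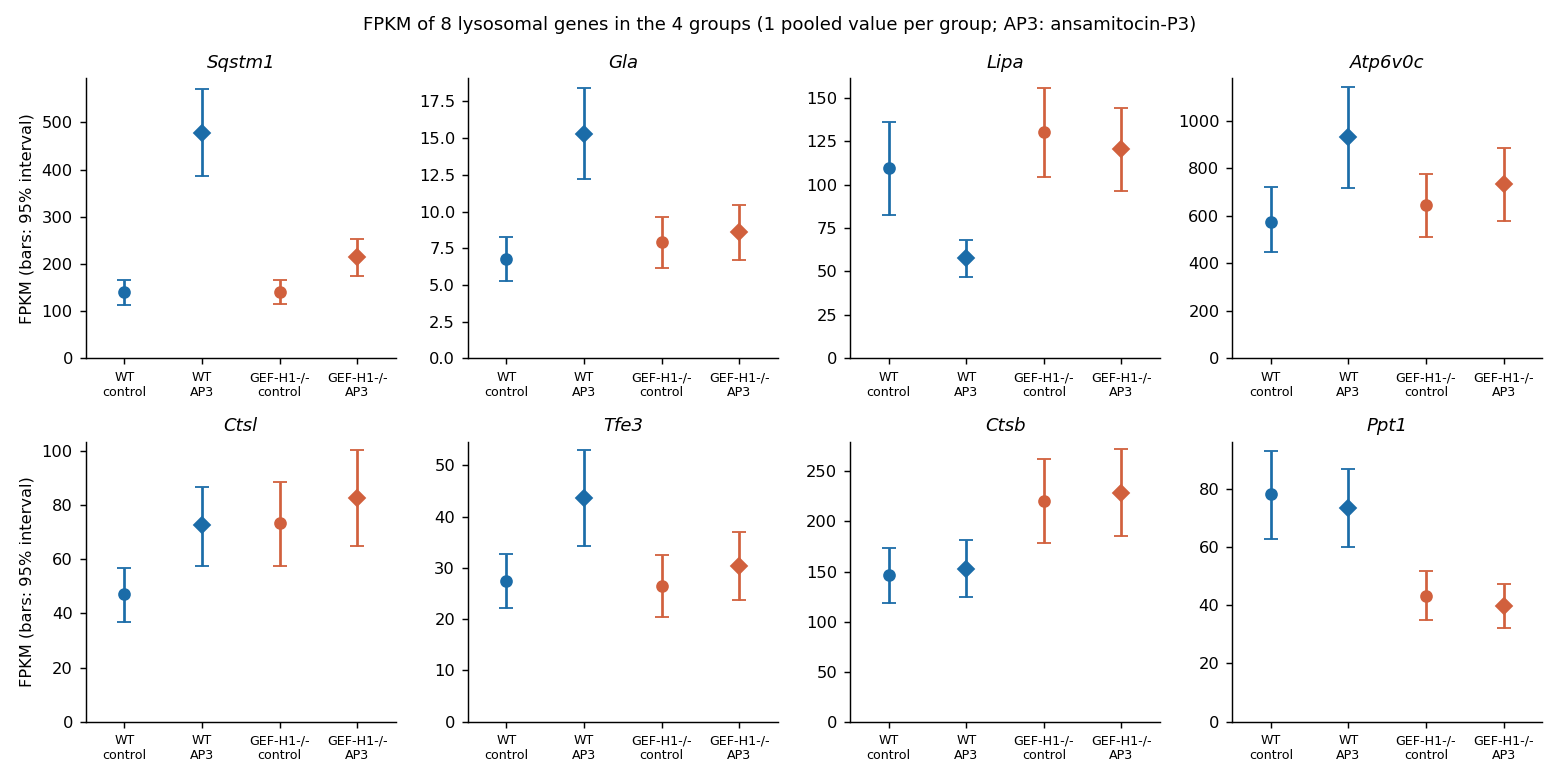
FPKM of 8 members (vertical axes, from 0) in the 4 groups, with bars for the 95% interval of Cuffdiff and 1 pooled value per group. *Sqstm1* and *Gla* are highest and *Lipa* lowest in treated WT BMDCs, *Ctsl* is lowest in control WT BMDCs, and *Ctsb* and *Ppt1* differ between the genotypes at both conditions.

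The other 6 cathepsins stayed within 1.5-fold in both genotypes. *Ctsd*, for the aspartic protease cathepsin D, had 623 FPKM (504 to 741) in untreated and 833 (672 to 996) in treated WT BMDCs, against 777 (629 to 925) and 787 (636 to 938) in GEF-H1-/- BMDCs, with overlapping intervals throughout. Its log2 ratio was 0.42 in WT and 0.02 in GEF-H1-/- BMDCs. *Ctsz*, a carboxypeptidase, gave 0.37 and 0.15. *Ctsh*, an aminopeptidase, gave -0.27 and -0.12. *Ctsa*, the protective protein for beta-galactosidase and neuraminidase, gave 0.05 and -0.07. *Ctsb*, a cysteine protease, gave 0.06 and 0.05, and *Ctsc*, which activates serine proteases of granules, -0.07 and -0.01. The cathepsins therefore did not move as a block in WT BMDCs, where their log2 ratios ran from -0.27 to 0.61 with a median of 0.06. After rescaling to the same total it was -0.21, when that of all genes was -0.24.

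Glycosidases other than *Gla* stayed within 1.5-fold. *Hexa*, the alpha chain of beta-hexosaminidase, had a log2 ratio of 0.19 in WT and -0.04 in GEF-H1-/- BMDCs, and *Glb1*, for beta-galactosidase, of 0.08 and -0.06. *Gaa*, for the acid alpha-glucosidase that degrades glycogen, had -0.22 and -0.12. *Gusb*, for beta-glucuronidase, and *Neu1*, for a sialidase, were near 0 in WT BMDCs at 0.02 and 0.03, and at 0.04 and -0.10 in GEF-H1-/- BMDCs. Among the genes for lipid and protein breakdown other than *Lipa*, *Tpp1*, a tripeptidyl peptidase, had 0.14 and -0.03, and *Psap* 0.13 and -0.09. *Asah1*, for acid ceramidase, had -0.17 and -0.13. *Grn*, for progranulin, and *Ppt1*, for palmitoyl-protein thioesterase, had -0.10 and -0.09 in WT and -0.15 and -0.12 in GEF-H1-/- BMDCs.

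The 10 proton pump genes among the members were mostly higher in treated WT BMDCs, and none of the 10 had intervals apart. *Atp6v0c*, for the proteolipid that forms the rotating ring of the V0 sector, was the 1 of the 10 past 1.5-fold, at 575 FPKM (449 to 723) in untreated and 931 (716 to 1144) in treated WT BMDCs. Without GEF-H1 it was at 645 FPKM (512 to 776) and 734 (580 to 884). Treated WT BMDCs had the highest value, but the intervals of all groups overlapped, and the log2 ratios were 0.69 and 0.19. The mouse annotation holds pseudogenes of *Atp6v0c*, with which its reads could have been shared in the counting. Of the 10 pump genes, 9 had a higher value in treated than in control WT BMDCs, with a median log2 ratio of 0.39, which was 0.11 with 7 of 10 higher when the groups were rescaled to the same total. That rescaling took the median of all genes to -0.24. Relative to it, the pump median was 0.38 above as deposited and 0.35 above after rescaling, with 9 of 10 genes above it in both. In GEF-H1-/- BMDCs 8 of 10 were higher, with a median of 0.09. Their summed level was 1515 FPKM in control and 2070 in treated WT BMDCs, and 1555 and 1682 in GEF-H1-/- BMDCs.

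Within the V0 sector, *Atp6v0b*, another proteolipid of the ring, had log2 ratios of 0.54 in WT and 0.15 in GEF-H1-/- BMDCs, and *Atp6v0d1*, which links the ring to the stalk, 0.40 and 0.05. In the V1 sector the WT log2 ratios ran from -0.22 to 0.47, and none of these subunits had intervals apart. *Atp6v1e1*, for a peripheral stalk subunit, had 0.47 and 0.07, and *Atp6v1c1*, for the subunit that joins the stalks to the V0 sector, 0.40 and 0.16. *Atp6v1h*, for a regulatory subunit, had 0.29 and 0.17, and *Atp6v1d*, for the central shaft, 0.21 and -0.06. Both subunits of the catalytic head were below these values in WT BMDCs, with 0.16 and 0.09 for *Atp6v1a*, which splits ATP, and -0.22 and -0.05 for its partner *Atp6v1b2*. *Atp6v1b2* was the 1 of the 10 with a lower value in treated WT BMDCs, at 227 FPKM (183 to 272) before and 196 (160 to 231) after treatment. The accessory gene *Atp6ap1*, needed for assembly of the pump, had 0.37 and 0.09.

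The 4 genes for membrane proteins had a median log2 ratio of 0.33 in WT and 0.03 in GEF-H1-/- BMDCs, none past 1.5-fold. After rescaling to the same total the medians were 0.06 and -0.01, when those of all genes were -0.24 and -0.05. *Lamp2*, a main glycoprotein of the membrane, stood at 131 FPKM (94.4 to 171) in untreated and 180 (142 to 218) in treated WT BMDCs, with a log2 ratio of 0.45 and overlapping intervals. *Cd63*, a tetraspanin of late endosomes and lysosomes, had 0.45 in WT and 0.07 in GEF-H1-/- BMDCs. *Lamp1* had 0.14 and -0.04 and *Mcoln1*, the calcium channel TRPML1, 0.22 and -0.01. *Mcoln1* was the lowest of the membrane genes, at 13.4 FPKM (10.4 to 16.5) in control WT BMDCs.

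The 3 factor genes differed from each other. *Tfe3* stood at 27.4 FPKM (22.2 to 32.7) in untreated and 43.6 (34.4 to 53.0) in treated WT BMDCs, and at 26.4 (20.5 to 32.5) and 30.3 (23.7 to 37.0) in GEF-H1-/- BMDCs, with log2 ratios of 0.65 and 0.19. Its intervals lay apart in WT and overlapped in GEF-H1-/- BMDCs. *Mitf* had 7.59 FPKM (5.85 to 9.36) and 11.6 (9.45 to 13.8) in control and treated WT BMDCs, and 8.64 (6.97 to 10.3) and 12.5 (10.1 to 14.8) in GEF-H1-/- BMDCs. Unlike *Sqstm1*, *Gla* and *Tfe3*, *Mitf* had log2 ratios of like size in both genotypes, 0.55 and 0.48, just inside the limit. *Tfeb* was lower in treated than in control WT BMDCs, at 19.0 FPKM (15.4 to 22.6) and 14.9 (12.0 to 17.8) with overlapping intervals, and its log2 ratio was -0.33 in WT and -0.15 in GEF-H1-/- BMDCs.

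In GEF-H1-/- BMDCs, *Sqstm1* was the 1 member of 37 more than 1.5-fold higher after ansamitocin-P3, against 2.78% of all genes, and none was lower, against 1.2%. It was also the 1 member whose intervals lay apart, against 3.7%. By any amount, 19 of 37 members (51.4%) were higher, where 47.6% of all genes were, and the median log2 ratio was 0.02, or -0.03 after rescaling to the same total. The members' ratios in both genotypes had the same sign for 28 of 37 (8614 of all 11397 genes), and 9 were higher in WT and not in GEF-H1-/- BMDCs (1526 of all genes). The WT ratio was the larger in size for 32 of 37 members, as for 8835 of the 11397 genes. Across the 37 members, Pearson's r between the ratios was 0.82 and Spearman's rho 0.87, and without *Sqstm1* they were 0.72 and 0.86. Across all filtered genes r was 0.36 and rho 0.71. These describe genes of the same libraries, which are not independent replicates.

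**Figure D3:**
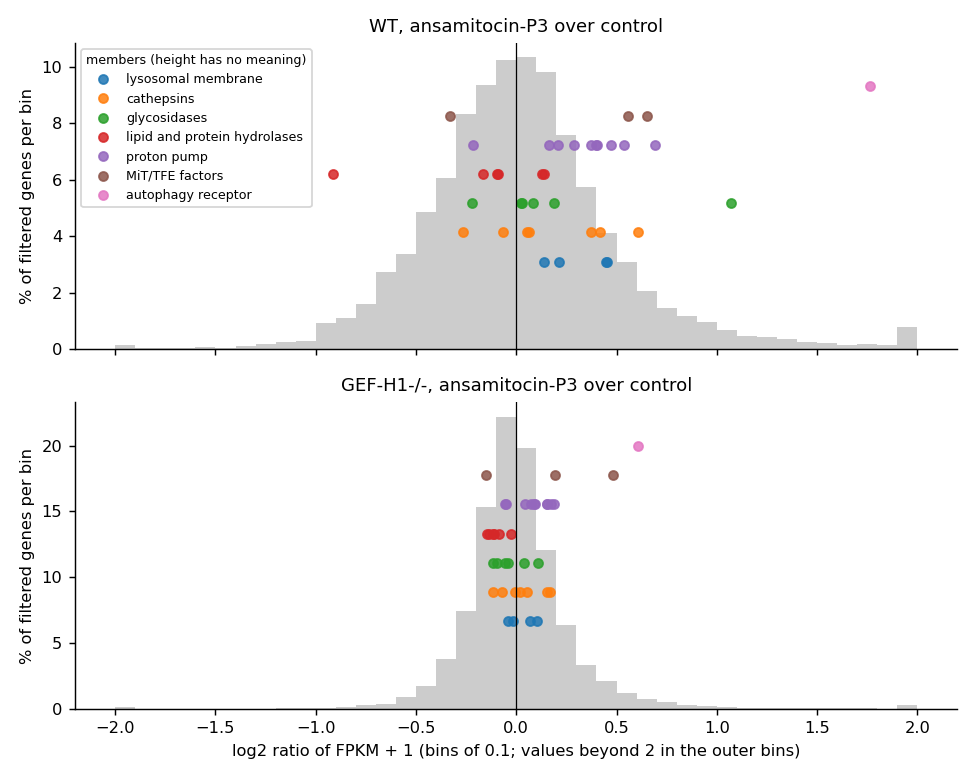
Distribution of the log2 ratio of FPKM + 1 with ansamitocin-P3 over all filtered genes (grey bars, percent of genes per bin of 0.1) in WT and GEF-H1-/- BMDCs, with the 37 members as points coloured by role, whose height carries no value. In WT, points of the proton pump sit mostly right of 0 (9 of 10, or 7 of 10 after rescaling to the same total), while in GEF-H1-/- BMDCs the members other than *Sqstm1* and *Mitf* lie within 0.2 of 0.

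The drug's effect differed between genotypes (GEF-H1-/- minus WT) by more than 1.5-fold for 3 members. *Sqstm1* (-1.16) and *Gla* (-0.96) were below, against 4.83% of all genes, and *Lipa* (0.80) was above, against 3.38%. *Sqstm1* was also past 2-fold, where 1.9% of all genes were. No interaction test is possible with 1 value per group. The members' median difference was -0.17, which turned to 0.06 after rescaling to the same total, when the median of all genes was 0.19. For the proton pump it was -0.28, and -0.04 after rescaling, with 1 and 3 of 10 genes above 0. *Ctsl* (-0.44), *Tfe3* (-0.46) and *Atp6v0c* (-0.51), past 1.5-fold in WT, had differences within the limit.

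Between the control groups, 2 members were more than 1.5-fold higher in GEF-H1-/- than in WT BMDCs, *Ctsb* and *Ctsl*, against 3.19% of all genes, and 2 were lower, *Ctsc* and *Ppt1*, against 2.07%. Intervals lay apart for *Ctsb*, *Ctsl* and *Ppt1*, 8.11% of the members and 4.74% of all genes. None was past 2-fold. This comparison uses the same control WT values as the drug's effect in WT. The members' median log2 ratio was 0.02 and that of the proton pump 0.00, with 5 of 10 pump genes higher. *Sqstm1* (0.00), *Tfeb* (0.01), *Lamp1* (-0.02) and *Atp6v1a* (0.01) had nearly equal values in both genotypes. The largest other ratio was 0.42 for *Cd63*, at 238 FPKM (187 to 289) in WT and 317 (260 to 375) in GEF-H1-/- BMDCs.

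*Ctsb* (chromosome 14, 63122462 to 63145923) stood at 146 FPKM (119 to 173) in untreated and 153 (125 to 181) in treated WT BMDCs, and at 221 (179 to 263) and 229 (186 to 272) in GEF-H1-/- BMDCs. Both GEF-H1-/- groups lay above both WT groups, with log2 ratios of 0.59 in control and 0.58 in treated cells, or 0.62 and 0.84 after rescaling to the same total. As deposited, ansamitocin-P3 made little difference in either genotype. *Ppt1* (chromosome 4, 122836242 to 122859175) showed the reverse, with 78.3 FPKM (62.9 to 93.1) and 73.4 (60.0 to 86.9) in WT and 43.2 (34.8 to 51.7) and 39.8 (32.1 to 47.4) in GEF-H1-/- BMDCs. Its log2 ratios were -0.84 in control and -0.87 in treated cells, with intervals apart in both, and -0.82 and -0.61 after rescaling to the same total. *Ctsc* was at 204 FPKM (158 to 245) and 194 (154 to 234) in WT against 130 (102 to 158) and 130 (101 to 157) in GEF-H1-/- BMDCs, where the interval bounds of the control groups met at 158 FPKM. *Ctsb* shares exon bases with *Fdft1* and *Ppt1* with *Cap1*, each on the opposite strand.

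**Figure D4:**
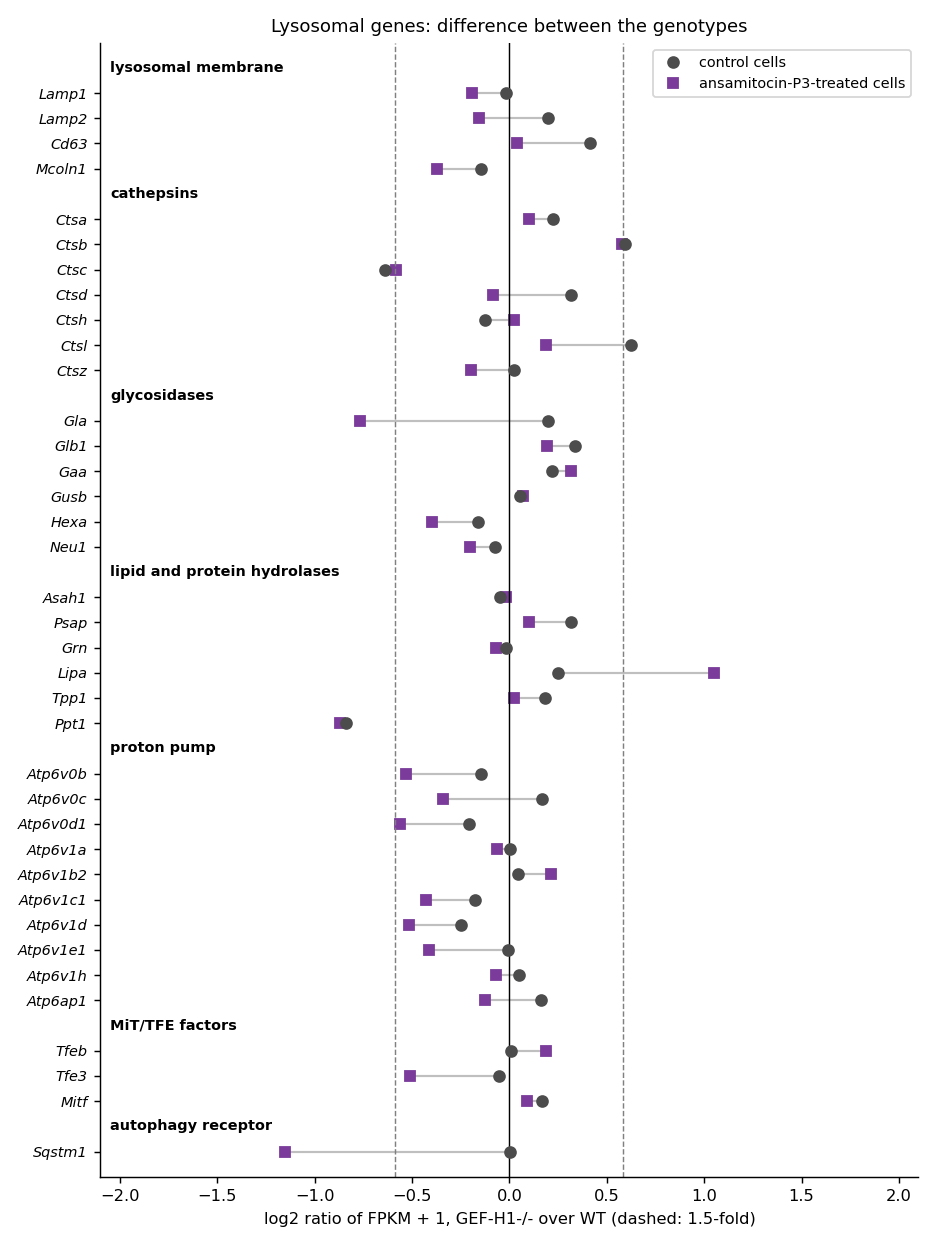
Difference between the genotypes for each of the 37 members, as the log2 ratio of FPKM + 1 of GEF-H1-/- over WT BMDCs, in control (circles) and ansamitocin-P3-treated cells (squares), with dashed lines at 1.5-fold. *Ctsb*, *Ctsc* and *Ppt1* have like values at both conditions as deposited. After rescaling to the same total, *Ctsb* has 0.62 in control and 0.84 in treated cells, and *Ppt1* -0.82 and -0.61. *Sqstm1*, *Gla* and *Lipa* are apart from 0 in treated cells (-1.15, -0.77 and 1.05, and -0.89, -0.52 and 1.31 after that rescaling).

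Markers of other cell types also differed between the control groups. The 11 macrophage markers summed to 766 FPKM in WT and 1299 in GEF-H1-/- BMDCs, most of it from *Lyz2*, at 557 and 984 FPKM. In GEF-H1-/- BMDCs 9 of the 11 were higher and 2 lower. More than 1.5-fold higher were 6 of them, among them *Lyz2* and *C1qa*, the latter at 4.22 and 29.2 FPKM. *Csf1r* (84.9 and 91.3 FPKM), *Adgre1* (35.9 and 36.9) and *Fcgr1* (9.83 and 10.2) were nearly equal, and *Mertk* and *Cd14* were the 2 lower. All 5 filtered markers of basophils and mast cells were more than 1.5-fold higher, and their sum was 189 and 369 FPKM. The 8 neutrophil markers summed to 32440 and 21868 FPKM, with 3 past 1.5-fold higher and 4 lower, among them *Camp* at 189 and 15.0 FPKM. DC markers summed to 13816 and 11297 FPKM, most of it from *Ccl17*, *Cd74* and *Ccl22*, and 3 of the 9 were higher and 6 lower, with 1 past 1.5-fold each way. No defining marker of these types was at 0 except *Mcpt4* of mast cells in the treated groups. *Lyz2*, *Ctsb* and *Ctsl* are all used by macrophages and *Ctsc* by neutrophils and mast cells, and the part of these cells in the differences of *Ctsb*, *Ctsl*, *Ctsc* and *Ppt1* was not tested.

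Between treated GEF-H1-/- and treated WT BMDCs, *Lipa* was the 1 member more than 1.5-fold higher, against 7.33% of all genes. *Gla*, *Ppt1* and *Sqstm1* were lower, 8.11% of the members against 7.48% of all genes. *Lipa* (1.05) and *Sqstm1* (-1.15) were past 2-fold, 5.41% against 4.06%, and intervals lay apart for *Lipa*, *Gla*, *Ppt1*, *Sqstm1* and *Ctsb*, 13.5% against 13.7%. *Ctsb* (0.58) and *Ctsc* (-0.58) fell just inside the limit. After rescaling to the same total the members past 1.5-fold were *Lipa* and *Ctsb* (0.84), higher, and *Ppt1* and *Sqstm1*, lower, while *Gla* (-0.52) was inside the limit. Of all genes, 18.7% were then past it in either direction, against 14.8% as deposited. The median over the members was -0.08, which turned to 0.18 after rescaling to the same total, when that of all genes was 0.20. For the proton pump it was -0.38, with 9 of 10 genes lower and none past 1.5-fold, and -0.12 with 6 of 10 lower after rescaling. *Atp6v0d1* came nearest to the limit, at 161 FPKM (124 to 197) in treated WT and 109 (84.1 to 133) in treated GEF-H1-/- BMDCs, a log2 ratio of -0.56 with overlapping intervals.

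Members with and without the promoter match had like medians in both genotypes, a comparison that was not tested. In WT BMDCs, the 10 members with TCACGTG had a median log2 ratio of 0.19, and 9 of them were higher in treated cells. The 21 members with a promoter and no match had a median of 0.21, and 16 were higher. In GEF-H1-/- BMDCs the medians were 0.00 and 0.04. Over all filtered genes with a promoter, those with and without the match had a median of 0.00 in WT BMDCs, over 611 and 7908 genes. Rescaling to the same total applies the same factor to every gene of a group, which makes medians of this size negative in WT, as for the members as a whole.

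Another 117 genes of lysosomes and autophagy, from lists drawn up by function, show how the members compare with the rest of the pathway, and 109 passed the filter. In WT BMDCs 9 of these were more than 1.5-fold higher and 10 lower after ansamitocin-P3, with a median log2 ratio of 0.02. Of all genes, 9.66% were past this limit upward and 8.04% downward. The 18 autophagy genes had the highest median of these lists, 0.44, or 0.17 after rescaling to the same total, when that of all genes was -0.24. Past 1.5-fold were 6 higher and none lower, against 9.66% and 8.04% of all genes. After rescaling these were 3 higher and 1 lower, where 23.6% of all genes were past the limit in either direction (17.7% as deposited). *Map1lc3a*, which encodes a form of LC3 that coats autophagosomes, stood at 11.0 FPKM (8.15 to 14.0) in untreated and 28.9 (22.5 to 35.4) in treated WT BMDCs, a log2 ratio of 1.31. *Gabarapl1*, of the same family, had 1.12, and *Optn*, like *Sqstm1* an autophagy receptor, 1.02. In GEF-H1-/- BMDCs they had 0.40, 0.23 and 0.38 and none of the 18 was past 1.5-fold, against 2.78% of all genes higher and 1.2% lower. Between the treated groups 9 of the 18 were more than 1.5-fold lower in GEF-H1-/- BMDCs, against 7.48% of all genes. After rescaling 4 were lower, where 18.7% of all genes were past the limit in either direction (14.8% as deposited).

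The 28 further hydrolases that passed the filter lay on the other side of 0, with a median of -0.25 in WT and -0.12 in GEF-H1-/- BMDCs. In WT BMDCs 7 were more than 1.5-fold lower and 1 higher, against 8.04% and 9.66% of all genes. After rescaling to the same total the WT median was -0.50 and 13 were more than 1.5-fold lower. Of all genes, 23.6% were then past the limit in either direction, against 17.7% as deposited. Relative to the median of all genes, the hydrolases' median was -0.25 as deposited and -0.27 after rescaling. Of the 11 macrophage markers, 9 were also lower in treated than in control WT BMDCs, with a median log2 ratio of -0.35, and -0.11 in GEF-H1-/- BMDCs, and their part in the values of the hydrolases was not tested. *Naaa*, for an acid amidase of fatty acid ethanolamides, stood at 271 FPKM (214 to 329) in untreated and 142 (116 to 168) in treated WT BMDCs, a log2 ratio of -0.93. *Galc*, for galactosylceramidase, was the 1 that was higher, at 6.65 FPKM (5.00 to 8.29) before and 15.7 (12.1 to 19.3) after treatment in WT BMDCs. In GEF-H1-/- BMDCs it stood at 5.89 FPKM (4.39 to 7.32) and 10.4 (7.87 to 12.9), and the intervals were apart in both genotypes. Of the proton pump, 9 further genes passed the filter with a median of 0.18 in WT and 0.06 in GEF-H1-/- BMDCs, and of -0.09 in WT after rescaling. *Atp6v0a1*, for a V0 subunit and named after its values were seen, was the 1 of these 9 past 1.5-fold in WT BMDCs, at 56.2 FPKM (45.8 to 66.6) before and 91.8 (75.0 to 108.6) after treatment, a log2 ratio of 0.70 with intervals apart, and it was inside the limit after rescaling. *Laptm4b*, for a small lysosomal membrane protein, was among the few past 1.5-fold in both genotypes, at 1.23 and 0.98. The lists for nutrient sensing at the lysosome (14 genes) and for sorting to it (14 genes) had WT medians of 0.01 and -0.10, with 1 of the 28 genes past the limit. After rescaling to the same total the medians were -0.24 and -0.35, with 2 and 4 genes more than 1.5-fold lower. The median of all genes was then -0.24.

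**Figure D5:**
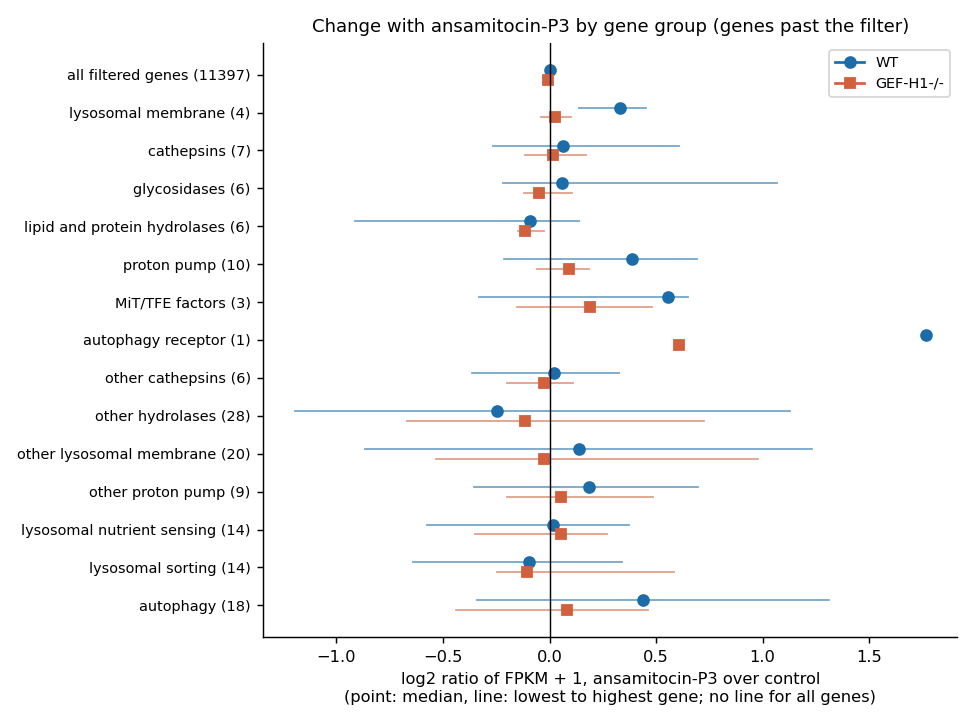
Median log2 ratio of FPKM + 1 with ansamitocin-P3 (points) and lowest to highest gene (lines) for each group of members and for the other lists, in WT (circles) and GEF-H1-/- BMDCs (squares), with the number of filtered genes in brackets. In WT, autophagy (0.44) and the proton pump (0.39) lie right of 0 and other hydrolases (-0.25) left of it, which become 0.17, 0.11 and -0.50 after rescaling to the same total, where all genes shift to -0.24.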

How the data were processed

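RNA-seq was performed on 8 libraries, 2 in each of 4 groups. Per the labels and methods, strand-specific libraries were made from polyadenylated RNA. The submitters' processing notes name Cuffdiff (version 1.05) and mm10. The aligner and annotation behind the table are not given in the sources used here. The authors deposited FPKM per gene and group, pooled over libraries, with the bounds of a 95% interval and a status. Columns were matched to groups by name, those of WT cells by elimination, and 0 columns of per-sample values were left unused. Genes with a status other than OK (106 LOWDATA and 1 HIDATA) and those under 1 FPKM in all groups were left out. For each comparison the log2 ratio of FPKM + 1 was computed in Python 3.11.15 with pandas 2.3.3 and numpy 2.4.6, after the computation had been tested on simulated data. As 1 pooled value per group allows no test, genes were counted past 1.5-fold, past 2-fold (the size limit of the study) and with intervals apart.

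All members were named. Of the other lists, genes past 1.5-fold in either drug effect or between the controls and with at least 5 FPKM were named, at most the 6 largest per comparison (1 gene so named is not reported here), and markers were given by sum and range. Marker examples were chosen after their values were seen. Members and lists were chosen with earlier results of these data known. Marker *Adgre1* was found under an older name, and *Ly6g* and *Trac* were not analysed here. Gene positions are those of GENCODE M21, and that of *Arhgef2* is the table's, counted from 1. In all, 14 members share exon bases with another annotated gene. Promoters came from RefSeq, 40 for 31 members. Alternatives were pseudocounts of 0.1 and 5 FPKM, no filter or 5 FPKM, rescaling to the median ratio or to the same total, and the other limits. The study's methods give a targeted depth, and the depth reached by each library is unknown. Among 3022 to 3119 genes under 0.3 FPKM no steps of whole reads could be recovered.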

Additional observations from a re-analysis of the deposited data

How the results depend on the processing

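No paired analysis was possible because the table holds 1 pooled value per group, and for the same reason no replicate could be left out. Of the counts and medians of the members in the 5 comparisons, 61 values under the alternatives were the same by the limits used and 9 moved. These limits were fixed, at within 1.5 times for a count and less than 0.1 in log2 ratio for a median. None turned the direction of a single member that was past 1.5-fold. With a limit of 2-fold in place of 1.5-fold, the number of members counted went from 6 to 2 in WT, from 1 to 0 in GEF-H1-/- BMDCs, from 4 to 0 between the controls, from 4 to 2 between the treated groups and from 3 to 1 for the difference of the drug effects. Rescaling to the same total took the count in GEF-H1-/- BMDCs from 1 to 0. The same rescaling moved the members' median log2 ratio from 0.19 to -0.087 in WT, from -0.08 to 0.18 between the treated groups and from -0.17 to 0.061 for the difference, which follows from the factor of 0.824 it applies to treated WT BMDCs. Over genes with a status of OK, the total of treated WT BMDCs exceeds that of control WT BMDCs by 129372 FPKM, of which 10 genes hold 39.4%, among them *Mir5109*, *Actg1*, *S100a8* and *Actb*. Rescaling to the median ratio, with factors from 0.999 to 1.01, moved none of these. Over all genes, a pseudocount of 5 FPKM took the number past 1.5-fold from 2017 to 1024 in WT, from 454 to 219 in GEF-H1-/- BMDCs, from 600 to 270 between the controls, from 1687 to 870 between the treated groups and from 935 to 441 for the difference, and one of 0.1 FPKM gave 738 in GEF-H1-/- BMDCs, 944 between the controls and 1445 for the difference. At 2-fold they were 563, 123, 214, 463 and 216. The intervals of the members spanned 36.0% to 65.1% of the FPKM (median 42.6%), so changes much under 1.5-fold were not resolved for single genes.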

Other observations

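Other lysosomal genes differed between the genotypes before treatment. In control GEF-H1-/- BMDCs, *Ctsk*, a cathepsin known from osteoclasts, stood at 8.36 FPKM (6.28 to 10.4) against 1.62 (1.08 to 2.15) in WT, a log2 ratio of 1.84. *Gpnmb*, a glycoprotein of macrophage and melanocyte lysosomes, stood at 68.3 FPKM (55.8 to 80.7) against 21.1 (17.3 to 25.0), a log2 ratio of 1.65. *Slc11a1*, a metal ion transporter of phagosomes, followed with 1.35, *Acp5*, for tartrate-resistant acid phosphatase, with 0.90, and *Atp6v0d2*, a V0 subunit of osteoclasts and macrophages, with 0.74. After ansamitocin-P3, *Ctsk* and *Gpnmb* had nearly the same values in each genotype as before, with log2 ratios of -0.01 and -0.04 in WT and 0.04 and 0.02 in GEF-H1-/- BMDCs. Rescaling to the same total, whose factor for control GEF-H1-/- BMDCs is 1.02, leaves the control values almost as they are. These genes are also used by macrophages, and 6 of 11 macrophage markers were more than 1.5-fold higher in control GEF-H1-/- BMDCs. The part of macrophages in these values was not tested. *Igf2r*, the receptor that carries hydrolases with mannose 6-phosphate to the lysosome, went from 4.99 FPKM (3.91 to 6.07) to 7.99 (6.34 to 9.65) with ansamitocin-P3 in GEF-H1-/- BMDCs and from 2.67 to 3.30, with overlapping intervals, in WT BMDCs. Its log2 ratio in GEF-H1-/- BMDCs, 0.586, was barely past the limit, and inside it after rescaling to the median ratio or to the same total.

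Tissue-restricted forms of the proton pump, named here after their values were seen, were near 0 in all groups. *Atp6v1b1*, the B subunit of kidney and inner ear, was listed at 0 throughout, and *Atp6v0a4*, *Atp6v1c2*, *Atp6v1e2* and *Atp6v0e2* did not exceed 0.0656 FPKM in any group. *Lamp3*, a marker of mature DCs in human tissue, did not exceed 0.119 FPKM.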
